A study of Mus musculus with 18 samples.

Results

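The Sprouty and Spred feedback inhibitors of receptor tyrosine kinase signalling were followed as 6 genes, Spry1, Spry2, Spry4, Spred1, Spred2 and Spred3, chosen by symbol from the 55335 genes counted. All 6 were detected and passed edgeR's filter on low counts. With at least 10 counts asked of every library, an alternative filter, Spry1 was not tested at d2.5 or between days. Sprouty proteins act inside the cell below growth factor receptors, where they bind adaptors such as Grb2 and the ubiquitin ligase Cbl and limit the Ras to Raf to ERK cascade. Spred proteins carry an EVH1 domain beside the cysteine-rich Sprouty domain, and Spred1 recruits the Ras GTPase-activating protein neurofibromin (Nf1) to the membrane. ERK activity induces transcription of several of these genes, so that their transcripts are widely used as a readout of FGF signalling, and in the skull they are known for restraining FGF signals during suture and bone development.

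The cells were O9-1 cells, a wildtype mouse cranial neural crest line isolated from embryos, cultured in osteoblast differentiation medium and collected at d2.5 and d5. Ctrl+vehicle cells received a scrambled siRNA without FGF2, Ctrl+FGF2 cells received the scrambled siRNA with FGF2, and Y/T dKD+FGF2 cells received an siRNA pool against Yap (Yap1) and Taz (Wwtr1), the transcriptional coactivators of the Hippo pathway, with FGF2. Each of the 6 groups had 3 polyA RNA-seq libraries, 18 in all. The study asked how Yap and Taz mediate FGF signalling in these cells. No knockdown without FGF2 was sequenced among the libraries analysed here, so each knockdown effect below is an effect in the presence of FGF2, in 1 cell line.

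The libraries held between 10377151 and 14698525 counts in genes (median 12330911). Yap1 averaged 129 normalised counts per 1000000 counts in genes (CPM) in Ctrl+FGF2 cells at d2.5 and 66.7 CPM after knockdown (log2 -0.96), and it averaged 153 and 70.5 CPM at d5 (log2 -1.12), with no overlap between libraries. Wwtr1 went from 222 to 136 CPM at d2.5 (log2 -0.72) and from 215 to 124 CPM at d5 (log2 -0.80), again without overlap. Both transcripts were called lower than in Ctrl+FGF2 cells on both days and neither was lost. FGF2 itself raised Wwtr1 at d2.5, from 140 CPM in Ctrl+vehicle cells (log2 0.65). Against Ctrl+vehicle at d2.5, Wwtr1 after knockdown was therefore not called (log2 -0.065, edgeR quasi-likelihood test, adjusted p = 0.12), while Yap1 was lower (log2 -1.18). Of 11 markers of neural crest and its mesenchyme, 9 reached 1 CPM in 5 of the groups and 8 in the d2.5 Y/T dKD+FGF2 group, while Sox10 and Foxd3, which define early neural crest, had no count in any library. The summed level of the 11 lay between 1603 and 3100 CPM, and most of it is Prrx1, with group means of 1302 to 2218 CPM. Over 6 osteoblast markers the summed level lay at 13247 to 13407 CPM in vehicle-treated, 2299 to 2426 CPM in FGF2-treated and 2163 to 2299 CPM in knockdown libraries at d2.5, and at 31098 to 33113, 15858 to 17613 and 21893 to 23256 CPM in the same order at d5. Nearly all of this sum is Col1a1, at 12636, 2203 and 2009 CPM at d2.5. The other markers were also lower with FGF2 at d2.5, but they did not all follow Col1a1 after knockdown or at d5. In the order vehicle, FGF2, knockdown, mean Sp7 at d2.5 was 182, 26.1 and 36.0 CPM and Ibsp 206, 41.1 and 78.8 CPM. Alpl was 115, 0.140 and 0.105 CPM, Bglap 0.689, 0.0935 and 0.0259 CPM and Runx2 164, 92.1 and 98.7 CPM. At d5, in the same order, Runx2 was 137, 179 and 199 CPM and Sp7 35.8, 44.5 and 70.1 CPM. Alpl was 162, 54.5 and 93.3 CPM, Ibsp 114, 33.1 and 163 CPM and Bglap 2.69, 0.382 and 1.89 CPM. The part of these differences in the results below was not tested. In bulk RNA, fewer cells of a type and less RNA per cell cannot be told apart.

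To show what lies upstream of the genes that moved, the 250 bases before the RefSeq start site (GRCm38.p6) are given for Spry1, Spry2 and Spred1. Spry2 and Spred1 are shown because their profiles over the 18 libraries were the closest of any pair of family members, and Spry1 because its window was the one with a match to the letters GGAATG, the core bound by TEAD factors, the DNA-binding partners of Yap and Taz. Capitals mark that match, which lies 208 bases before the start site. RefSeq windows were found for 5 of the 6 genes, all but Spry4.
Spry1 promoter, chr3:37639697-37639946, plus strand: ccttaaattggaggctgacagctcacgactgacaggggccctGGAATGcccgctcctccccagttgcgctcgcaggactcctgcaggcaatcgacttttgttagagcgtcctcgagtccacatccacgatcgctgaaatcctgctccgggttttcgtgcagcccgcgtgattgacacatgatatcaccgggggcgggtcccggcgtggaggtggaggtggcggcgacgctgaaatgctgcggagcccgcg
Spry2 promoter, chr14:105896820-105897069, minus strand: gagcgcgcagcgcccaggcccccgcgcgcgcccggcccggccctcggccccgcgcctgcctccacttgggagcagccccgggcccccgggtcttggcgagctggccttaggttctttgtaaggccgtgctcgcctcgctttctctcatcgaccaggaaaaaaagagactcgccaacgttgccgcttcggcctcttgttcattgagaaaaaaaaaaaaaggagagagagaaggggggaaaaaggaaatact
Spred1 promoter, chr2:117120821-117121070, plus strand: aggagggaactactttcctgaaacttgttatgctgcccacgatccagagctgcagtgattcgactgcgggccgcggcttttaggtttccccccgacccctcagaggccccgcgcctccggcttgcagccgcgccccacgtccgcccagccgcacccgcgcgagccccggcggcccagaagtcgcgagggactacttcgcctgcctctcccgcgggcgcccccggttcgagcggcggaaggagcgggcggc

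A set of 4 motifs was searched on both strands of the 5 windows, namely GGAAGT for ETS factors, TGANTCA for AP-1, TGACGTCA for CREB factors and GGAATG for TEAD factors. The ETS and TEAD letters share the bases GGAA, and no site can match both in full. Spry1 held the TEAD letters and Spred2 held the ETS letters 33 bases before its start. The other 3 windows held none of the 4. Of 32851 mouse promoter windows of the same length, 12.6% held the TEAD letters, 19.7% the ETS letters, 6.75% the AP-1 letters and 1.55% the CREB letters. A match describes the letters and is not evidence of a bound site, and no match says only that the letters are not in the window.

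FGF2 raised Spry2, Spry4, Spred1, Spred2 and Spred3 at d2.5, Spry4 by the largest log2 amount. Spry1 was also called higher, but it is set apart here, since it entered the test through the groups with FGF2 and had 2 to 6 counts in the vehicle libraries. The 5 of 5 other genes called higher, or 6 of 6 with Spry1, stand beside 33.5% of the 13677 genes tested that were called higher and 34.1% that were called lower (edgeR quasi-likelihood test, Benjamini-Hochberg adjusted p under 0.05 throughout). The median log2 fold change was 1.52 over the 5 genes, 1.67 with Spry1 and 0.0022 over all genes tested. In none of the 6 did the Ctrl+FGF2 libraries overlap the Ctrl+vehicle libraries, which also held for 69.4% of the 14198 genes that passed the filter over all 18 libraries.

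Spry4 (ENSMUSG00000024427.7, chromosome 18, 38586247 to 38601415, minus strand), a Sprouty that blocks growth factor driven ERK activation, lay at 4.49, 4.78 and 4.79 CPM in the Ctrl+vehicle libraries and at 43.2, 40.5 and 43.5 CPM in the Ctrl+FGF2 libraries. The vehicle libraries were low and tight and every FGF2 library was several times above them. The difference was 8.96-fold (log2 3.16, SE 0.084, adjusted p = 1.4e-24). Spry2 (ENSMUSG00000022114.5, chromosome 14, 105891947 to 105896819, minus strand), the Sprouty best known for binding Cbl, lay at 13.0, 12.4 and 12.3 CPM without FGF2 and at 44.8 CPM in each of the 3 libraries with FGF2. It rose 3.54-fold (log2 1.82, SE 0.066, adjusted p = 5.0e-21).

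Spry1 (ENSMUSG00000037211.12, chromosome 3, 37639947 to 37644598, plus strand), which restrains growth factor signals in kidney and other organs, was the least abundant of the family. It lay at 0.276, 0.387 and 0.155 CPM in Ctrl+vehicle and at 1.97, 2.62 and 3.14 CPM in Ctrl+FGF2 libraries. The vehicle values rest on 4, 6 and 2 counts and the FGF2 values on 28, 36 and 47 counts. The fitted difference was 8.92-fold (log2 3.16, SE 0.35, adjusted p = 2.0e-09). Because Spry1 met the filter on low counts only through the groups with FGF2, where it was high, this call was favoured by the filter and is given as a description. The ratio of the summed counts, 111 against 12, scaled for depth, was 9.26, with a 95% exact Clopper-Pearson interval of 5.09 to 18.5 that covers counting error only.

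Spred1 (ENSMUSG00000027351.14, chromosome 2, 117121374 to 117182279, plus strand), the partner of neurofibromin, lay at 113, 107 and 117 CPM without FGF2 and at 321, 322 and 329 CPM with it, a 2.87-fold rise (log2 1.52, SE 0.040, adjusted p = 1.3e-24). Spred2 (ENSMUSG00000045671.17, chromosome 11, 19924375 to 20024026, plus strand), its close relative, lay at 45.3, 48.7 and 42.4 CPM and then at 115, 118 and 119 CPM, a 2.55-fold rise (log2 1.35, SE 0.047, adjusted p = 1.2e-21). Both Spred genes thus more than doubled in every library. Spred3 (ENSMUSG00000037239.8, chromosome 7, 29158829 to 29170411, minus strand), the member of the Spred group without a functional Kit-binding domain, lay at 11.5, 9.68 and 8.81 CPM and then at 27.6, 27.4 and 25.7 CPM, a 2.65-fold rise (log2 1.41, SE 0.099, adjusted p = 7.7e-14). The plot of levels by library shows these values for all 6 genes.

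**Figure D1:**
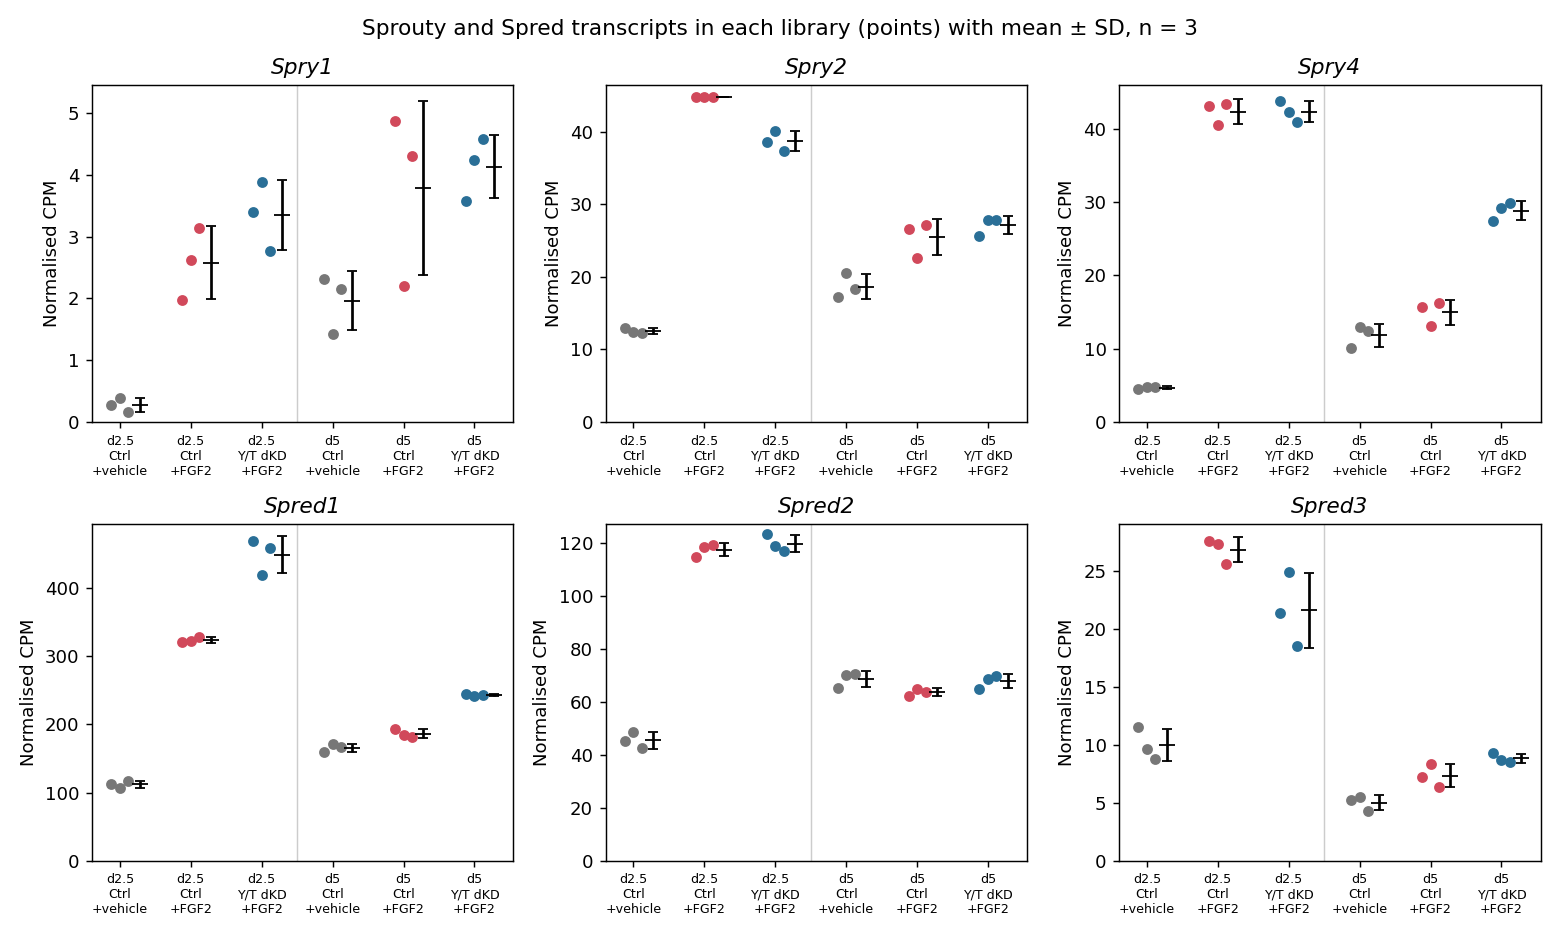
Normalised CPM (y axis, linear from 0) of each Sprouty and Spred gene in the 3 libraries of each of the 6 groups (x axis), as points, with the mean and SD (n = 3) beside them. At d2.5 the Ctrl+FGF2 libraries lie above the Ctrl+vehicle libraries in all 6 panels, and at d5 Spry4 lies at 27.5 to 29.8 CPM in Y/T dKD+FGF2 libraries against 13.0 to 16.2 CPM in Ctrl+FGF2 libraries.

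Knockdown of Yap and Taz under FGF2 changed 3 of the 6 genes at d2.5, by small amounts and in both directions. Spred1 rose, and Spry2 and Spred3 fell. The 1 gene called higher stands beside 10.8% of genes called higher, and the 2 called lower beside 13.6% called lower. Groups that did not overlap, as in these 3 genes, were found in 38.3% of all genes. The median log2 difference over the 6 genes was 0.0037, and over all genes 0.0013.

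Spred1 lay at 470, 419 and 459 CPM in the Y/T dKD+FGF2 libraries, all above the highest Ctrl+FGF2 library, a 1.38-fold rise (log2 0.46, SE 0.037, adjusted p = 9.4e-11). Spry2 lay at 38.6, 40.1 and 37.4 CPM, all below the Ctrl+FGF2 libraries (log2 -0.22, SE 0.055, adjusted p = 0.0037). Spred3 lay at 21.4, 25.0 and 18.6 CPM (log2 -0.32, SE 0.088, adjusted p = 0.0073), also without overlap, but without Y/T dKD+FGF2 replicate 3, its lowest library, the difference was -0.22 with an adjusted p of 0.0997. Spry2 and Spred3 stayed above every Ctrl+vehicle library.

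For the other 3 genes the libraries with and without knockdown overlapped at d2.5. Spry4 lay at 43.8, 42.2 and 41.0 CPM, with a log2 difference of -0.01 (SE 0.056, adjusted p = 0.92). Spred2 lay at 123, 119 and 117 CPM, with a difference of 0.02 (SE 0.042, adjusted p = 0.80). Spry1 lay at 3.40, 3.89 and 2.76 CPM, with a difference of 0.36 (SE 0.21, adjusted p = 0.21). The SEs of Spry4 and Spred2 are narrow beside their FGF2 responses, while that of Spry1, which rests on few counts, is wide.

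Against Ctrl+vehicle, the Y/T dKD+FGF2 libraries at d2.5 were higher in the 5 genes other than Spry1, and in Spry1 with the limit given above, beside 34.1% of genes called higher and 35.7% called lower. The log2 differences were 3.52 for Spry1, 3.15 for Spry4, 1.98 for Spred1, 1.60 for Spry2, 1.37 for Spred2 and 1.09 for Spred3, with adjusted p of at most 1.1e-10. These differences share the Ctrl+vehicle libraries with the FGF2 effects above.

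At d5 the FGF2 response was smaller. FGF2 raised 5 of the 6 genes, all but Spred2, beside 23.5% of genes called higher and 23.7% called lower among the 13304 tested. The largest value was that of Spry1, and that of Spry4, among the highest at d2.5, was 0.33 on the log2 scale. The median log2 difference over the 6 genes was 0.39, and over all genes 0.016.

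Spry1 lay at 2.31, 1.42 and 2.15 CPM in Ctrl+vehicle and at 4.87, 2.20 and 4.31 CPM in Ctrl+FGF2 libraries (log2 0.96, SE 0.28, adjusted p = 0.0087). The groups overlapped, since Ctrl+FGF2 replicate 2 lay below the highest vehicle library. The ratio of summed counts, 128 against 64, was 1.93 (95% exact Clopper-Pearson interval 1.42 to 2.65). Spry2 lay at 17.2, 20.5 and 18.3 CPM and then at 26.7, 22.6 and 27.2 CPM, a 1.37-fold rise without overlap (log2 0.45, SE 0.088, adjusted p = 3.9e-04).

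Spry4 lay at 10.1, 13.0 and 12.5 CPM without FGF2 and at 15.6, 13.0 and 16.2 CPM with it (log2 0.33, SE 0.11, adjusted p = 0.019). The lowest FGF2 library lay only just above the highest vehicle library. The call was lost without Ctrl+vehicle replicate 1 (log2 0.24, adjusted p = 0.092), without Ctrl+FGF2 replicate 1 (0.30, adjusted p = 0.055) and without Ctrl+FGF2 replicate 3 (0.27, adjusted p = 0.091).

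Spred1 lay at 159, 171 and 167 CPM and then at 194, 184 and 181 CPM (log2 0.18, SE 0.039, adjusted p = 0.0010). Spred3 lay at 5.23, 5.5 and 4.31 CPM and then at 7.26, 8.39 and 6.38 CPM (log2 0.57, SE 0.15, adjusted p = 0.0040). In both genes the groups did not overlap, as in 52.4% of all genes. Spred2 lay at 65.0, 70.2 and 70.4 CPM without FGF2 and at 62.0, 65.0 and 63.8 CPM with it (log2 -0.10, SE 0.049, adjusted p = 0.12), and without Ctrl+vehicle replicate 1 it was called lower (-0.13, adjusted p = 0.049).

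The FGF2 effect itself was smaller at d5 than at d2.5 in all 6 genes (5 of 5 without Spry1, whose d2.5 vehicle libraries held few counts), tested as an interaction in the fit of all 18 libraries, beside 29.1% of the 14198 genes tested with a lower effect at d5 and 31.8% with a higher one. The difference was greatest for Spry4 (log2 -2.86, SE 0.14, adjusted p = 1.6e-16), followed by Spry1 (-2.22, SE 0.52, adjusted p = 5.2e-04), Spred2 (-1.47, SE 0.070, adjusted p = 4.7e-17), Spry2 (-1.39, SE 0.11, adjusted p = 3.7e-12) and Spred1 (-1.36, SE 0.062, adjusted p = 1.3e-17). Spred3 differed least (-0.87, SE 0.20, adjusted p = 3.5e-04). The labels give each day as a batch of its own, so that day and batch cannot be told apart.

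At d5 knockdown under FGF2 raised Spry4 and Spred1 and no change was called in the other 4. The 2 genes called higher stand beside 15.6% of genes called higher, and edgeR and DESeq2 called none lower, beside 16.1% called lower by edgeR. The median log2 difference over the 6 genes was 0.19, and over all genes 0.0034. Spry4 lay at 27.5, 29.2 and 29.8 CPM in the Y/T dKD+FGF2 libraries, all far above the Ctrl+FGF2 range of 13.0 to 16.2 CPM, a 1.93-fold rise (log2 0.95, SE 0.096, adjusted p = 6.2e-07). Spred1 lay at 245, 241 and 243 CPM, above the highest Ctrl+FGF2 library at 194 CPM, a 1.30-fold rise (log2 0.38, SE 0.039, adjusted p = 6.7e-07). Spred1 was thus the gene of the family called higher after knockdown on both days.

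Spry2 at d5 lay at 25.7, 27.8 and 27.9 CPM after knockdown (log2 0.09, SE 0.083, adjusted p = 0.48). Spry1 lay at 3.57, 4.24 and 4.58 CPM (0.13, SE 0.24, adjusted p = 0.73). Spred2 lay at 64.6, 68.6 and 69.8 CPM (0.08, SE 0.050, adjusted p = 0.23). In these 3 genes the knockdown libraries overlapped the Ctrl+FGF2 libraries. Spred3 lay at 9.27, 8.72 and 8.56 CPM, all above the Ctrl+FGF2 libraries, where 43.2% of all genes had no overlap, but the difference did not pass the test (0.26, SE 0.13, adjusted p = 0.15).

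The knockdown effect was higher at d5 than at d2.5 in 3 of the 6 genes, beside 11.6% of genes with a higher effect and 9.35% with a lower one. Spry4 changed most, from a log2 difference near 0 to one of 0.95 (interaction 0.95, SE 0.11, adjusted p = 8.4e-08). Spred3 (0.58, SE 0.17, adjusted p = 0.014) and Spry2 (0.30, SE 0.096, adjusted p = 0.022) had fallen at d2.5 and did not pass the test at d5. The Spred3 call was lost without d5 Ctrl+FGF2 replicate 3 (0.49, adjusted p = 0.060), and the Spry2 call was lost in 4 of the fits that left out 1 library (0.22 to 0.29), namely those without d5 Ctrl+FGF2 replicate 2, d2.5 Y/T dKD+FGF2 replicate 3 and d5 Y/T dKD+FGF2 replicates 2 and 3. For Spred1 (-0.09, SE 0.059, adjusted p = 0.33), Spred2 (0.06, SE 0.067, adjusted p = 0.59) and Spry1 (-0.24, SE 0.32, adjusted p = 0.67) no difference between days was called.

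**Figure D2:**
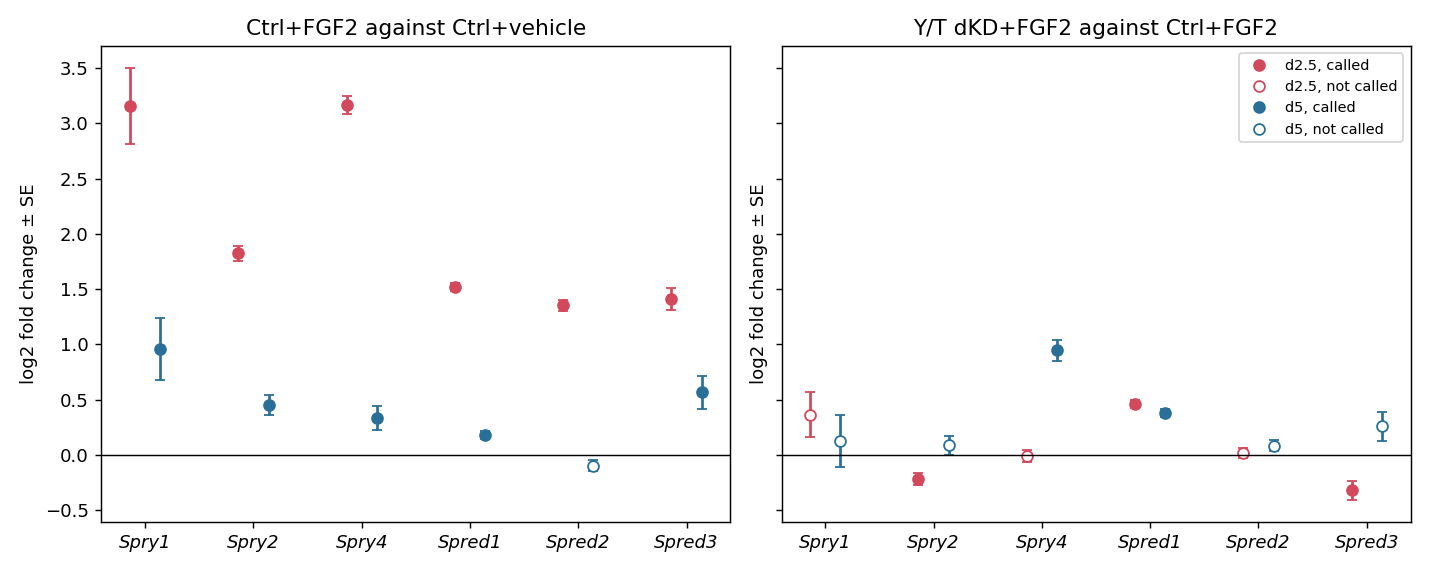
Log2 fold change with its SE (y axis) of each gene (x axis) for Ctrl+FGF2 against Ctrl+vehicle (left) and Y/T dKD+FGF2 against Ctrl+FGF2 (right), at d2.5 in red and d5 in blue; filled points passed an adjusted p of 0.05. The FGF2 effects run from 1.35 to 3.16 at d2.5 and from -0.10 to 0.96 at d5, and the knockdown effect of Spry4 goes from -0.01 to 0.95.

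Against Ctrl+vehicle at d5, the Y/T dKD+FGF2 libraries were higher in 5 genes, beside 20.7% of genes called higher and 21.1% called lower. The log2 differences were 1.28 for Spry4, 1.09 for Spry1, 0.83 for Spred3, 0.56 for Spred1 and 0.54 for Spry2, with adjusted p of at most 0.0038. Spred2 differed by -0.01 (SE 0.049, adjusted p = 0.85) and overlapped. Spred2 was thus the 1 gene with no call against vehicle at d5, with or without the knockdown.

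Between the days, which equal the labelled batches, the vehicle cells and the FGF2 cells differed in opposite directions in Spry2, Spry4, Spred1 and Spred2. Day and batch cannot be told apart in these comparisons. In Ctrl+vehicle cells 5 genes (4 without Spry1) were higher at d5 than at d2.5 and Spred3 was lower, beside 33.1% of genes called higher and 33.2% called lower. The log2 differences were 2.75 for Spry1, 1.35 for Spry4, 0.59 for Spred2, 0.58 for Spry2, 0.56 for Spred1 and -1.0 for Spred3, with adjusted p of at most 3.5e-06. The Spry1 value (SE 0.45) rests on 2 to 6 counts per library in d2.5 Ctrl+vehicle cells. In Ctrl+FGF2 cells 5 genes were lower at d5, by -1.86 for Spred3, -1.51 for Spry4, -0.88 for Spred2, -0.82 for Spry2 and -0.80 for Spred1, beside 38.8% of genes called lower and 41.2% called higher.

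Spry1 was the exception in Ctrl+FGF2 cells. It was higher at d5 (0.53, SE 0.23, adjusted p = 0.039), its libraries overlapped between days, and the call was lost without d5 Ctrl+FGF2 replicate 1 (0.31, adjusted p = 0.27), d5 replicate 3 (0.42, adjusted p = 0.15), d2.5 replicate 1 (0.36, adjusted p = 0.18) or d2.5 replicate 2 (0.53, adjusted p = 0.070). In Y/T dKD+FGF2 cells 5 genes were lower at d5, by -1.29 for Spred3, -0.89 for Spred1, -0.82 for Spred2, -0.55 for Spry4 and -0.51 for Spry2, beside 38.1% of genes called lower and 40.3% called higher. Spry1 differed by 0.29 (SE 0.22, adjusted p = 0.23).

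The order of the 6 groups differed between genes. Spry2 and Spred3 were highest in Ctrl+FGF2 at d2.5, Spred1 was highest after knockdown at d2.5, and Spry4 and Spred2 had these 2 groups at the top with overlapping libraries. Spry1 instead had its highest means in the d5 Y/T dKD+FGF2 and d5 Ctrl+FGF2 groups (4.13 ± 0.514 and 3.79 ± 1.41 CPM, SD, n = 3), and each of its first 4 groups overlapped the next in the order. In Spred1, which had the most counts of the family, no neighbouring groups overlapped. The share of all genes for which this holds was not computed. The d2.5 Ctrl+vehicle group was lowest in 5 genes, while Spred3 was lowest in d5 Ctrl+vehicle (5.01 ± 0.624 CPM).

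Divided by merged exon length, which allows levels of different genes to be compared, Spred1 was the most abundant of the 6 in every group, and Spry1 the least in 4 groups. In d5 Ctrl+FGF2 the mean of Spred3 was below that of Spry1 (1.18 ± 0.162 and 1.31 ± 0.485 CPM per kb, SD), but their libraries overlapped. After knockdown at d5 both means lay at 1.42 CPM per kb. The mean level of Spred1 was 16.5, 47.7 and 66.2 CPM per kb at d2.5 in the order vehicle, FGF2, knockdown with FGF2. Spry2 lay at 6.01, 21.5 and 18.5 CPM per kb and Spry4 at 0.985, 8.91 and 8.90 CPM per kb in the same groups. The sum over the 6 genes was 35.1 ± 0.382, 109 ± 1.16 and 124 ± 3.70 CPM per kb (SD, n = 3) at d2.5 and 52.2 ± 2.44, 59.1 ± 2.01 and 72.4 ± 1.33 CPM per kb at d5.

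The make-up of this sum moved with treatment. The 3 Sprouty genes gave 20.2% ± 0.248 of it in vehicle-treated, 28.8% ± 0.223 in FGF2-treated and 23.0% ± 1.14 in knockdown cells at d2.5. At d5 their shares were 23.2% ± 0.765, 28.2% ± 2.61 and 28.3% ± 0.922. The share of Spry4 ran from 2.81% ± 0.133 in d2.5 Ctrl+vehicle to 8.38% ± 0.206 in d5 Y/T dKD+FGF2, and that of Spred1 from 43.9% ± 0.145 in d2.5 Ctrl+FGF2 to 53.3% ± 1.98 in d2.5 Y/T dKD+FGF2. These shares are descriptions without a test.

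**Figure D3:**
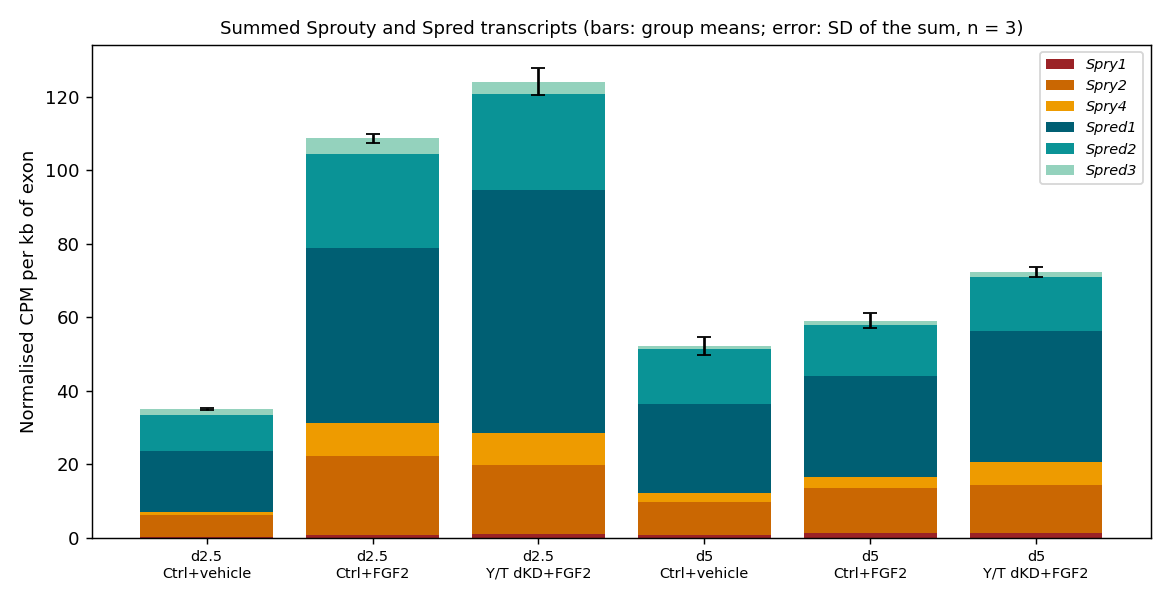
Mean level of each gene in CPM per kb of exon (y axis, linear from 0), stacked for each of the 6 groups (x axis), with the SD of the sum over 3 libraries as the error bar. The sum rises from 35.1 to 109 CPM per kb with FGF2 at d2.5 and from 52.2 to 59.1 CPM per kb at d5, and Spred1 is the largest segment in every bar.

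Other genes that ERK signalling induces, among them Pea3-type ETS factors (Etv1, Etv4, Etv5) and ERK phosphatases (Dusp4, Dusp5, Dusp6), were taken as a list of 14. FGF2 raised 12 and lowered 2 of them at d2.5 (median log2 1.53), beside 33.5% of all genes called higher and 34.1% called lower. Etv4 rose by 3.90 (SE 0.057), Etv5 by 3.86 (SE 0.057), Dusp4 by 3.26 (SE 0.099) and Dusp6 by 3.09 (SE 0.051), all with adjusted p of at most 5.2e-23, and Fos (-1.28) and Il17rd (-0.49) fell. At d5 FGF2 raised 8, lowered 1 and left 5 uncalled (median 0.31), beside 23.5% and 23.7% of all genes, and Dusp6 differed by -0.19 (SE 0.098, adjusted p = 0.12).

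After knockdown at d2.5 this list had 1 gene called higher, 4 lower and 9 not called, beside 10.8% and 13.6% of all genes called higher and lower. At d5 it had 11 higher, 2 lower and 1 not called, beside 15.6% and 16.1% (median 0.86, against 0.19 for the 6 Sprouty and Spred genes and 0.0034 for all genes). Dusp4 rose by 1.89 (SE 0.16, adjusted p = 7.5e-08), Etv4 by 1.52 (SE 0.14, adjusted p = 2.3e-07) and Dusp6 by 1.12 (SE 0.089, adjusted p = 3.3e-08) at d5, while Lrig1, a receptor inhibitor, fell by 0.63 and Dusp5 was not called (0.15, adjusted p = 0.28). In the interaction test 11 of the 14 had a higher knockdown effect at d5 and 2 a lower one, beside 11.6% and 9.35% of all genes. The grid of log2 fold changes sets these genes beside the family.

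**Figure D4:**
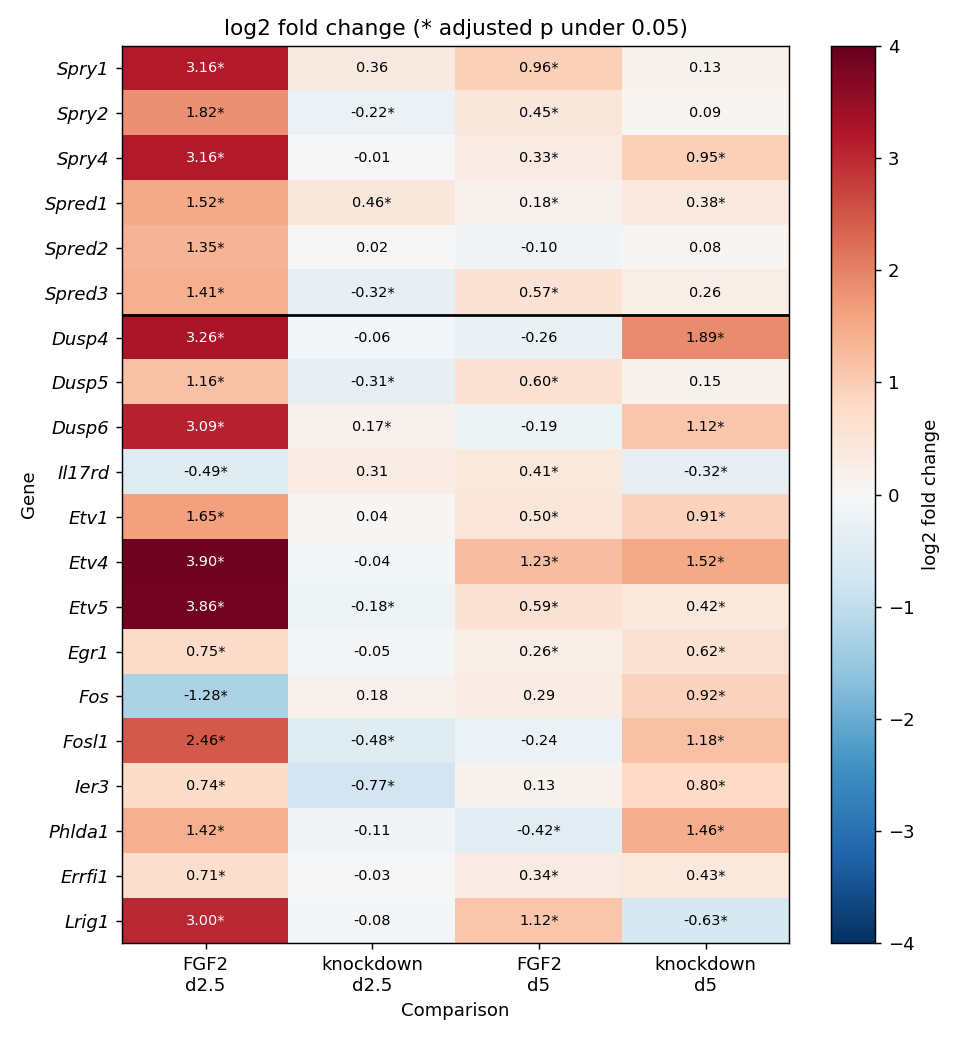
Log2 fold change of the 6 Sprouty and Spred genes (above the line) and 14 ERK-induced and feedback genes (below it), in rows, for the FGF2 and knockdown effects at d2.5 and d5, in columns; red is higher, blue lower, and an asterisk marks an adjusted p under 0.05. FGF2 at d2.5 gives the strongest column, and the knockdown at d5 raises Spry4 (0.95) and Spred1 (0.38) beside 11 of the 14 other genes.

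FGF receptors and their Frs adaptors lie above the Sprouty and Spred proteins in the pathway. Of 7 such genes 6 were tested, and FGF2 lowered 5 and raised 1 at d2.5, beside 34.1% of all genes called lower and 33.5% called higher. Fgfr3 fell by 4.93 (SE 0.14) on the log2 scale and Fgfr1 rose by 0.69 (SE 0.041). At d5 FGF2 raised 4 and lowered 1 (all genes 23.5% and 23.7%), and knockdown raised 2 and lowered 1 at d2.5 (10.8% and 13.6%) and raised 2 and lowered 3 at d5 (15.6% and 16.1%). Among 19 genes of the Ras to ERK core, FGF2 raised 7 and lowered 6 at d2.5, near the 33.5% and 34.1% of all genes called, with the largest rise in Rasa1, another Ras GTPase-activating protein (1.71, SE 0.038, adjusted p = 1.2e-26), and the largest fall in the adaptor Gab1 (-0.94, SE 0.081, adjusted p = 1.1e-11).

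At d5 FGF2 raised 6 and lowered 7 genes of the Ras to ERK core, beside 23.5% of all genes called higher and 23.7% called lower. Knockdown raised 3 and lowered 3 of its genes at d2.5 (all genes 10.8% and 13.6%) and raised 6 and lowered 2 at d5 (15.6% and 16.1%). Of 12 genes whose proteins bind or act on Sprouty and Spred proteins, 11 were tested. FGF2 raised 3 and lowered 3 of them at d2.5, in shares below the 33.5% and 34.1% of all genes, with the largest rise in the ubiquitin ligase Siah2 (0.72, SE 0.075, adjusted p = 6.6e-10) and the largest fall in Cblb (-0.71, SE 0.047, adjusted p = 1.8e-14), and at d5 it raised 3 and lowered 4 (all genes 23.5% and 23.7%). Knockdown raised 2 and lowered 1 at d2.5 (10.8% and 13.6%) and raised 2 and lowered 2 at d5 (15.6% and 16.1%). The ubiquitin ligase Cbl was called higher after knockdown on both days, by 0.19 (SE 0.049, adjusted p = 0.0037) and 0.55 (SE 0.058, adjusted p = 1.0e-06).

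For each member the genes with the most similar profile were sought among 11730 genes, by the root mean square difference of log2 CPM over the 18 libraries after centring each gene on its own mean. Spry4 was nearest to Slc22a23 (0.19), followed by Dusp6 (0.34) and Ctsc (0.36). Slc22a23 averaged 8.02, 72.7 and 81.8 CPM at d2.5 in the order vehicle, FGF2, knockdown and 22.4, 28.3 and 39.4 CPM at d5, and Dusp6 averaged 14.8, 127 and 143 CPM and then 30.9, 27.0 and 59.0 CPM. In both genes the d2.5 FGF2 level was well above vehicle, and the knockdown group had the highest mean on both days.

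Spry2 was nearest to Dok1 (0.15), AU020206 (0.16) and Trib1 (0.16), and Spred1 to Il1r1 (0.15), Synj2 (0.17) and Trib1 (0.18). Spred2 was nearest to Tpbg (0.12), Cav2 (0.13) and Dgkd (0.13), and Spred3 to Twist2 (0.22), Slc38a1 (0.26) and Reep4 (0.26). Spry1 had no close match, with Chst15 at 0.37, Foxs1 at 0.46 and Col18a1 at 0.50, and its low counts add to these differences. Within the family the closest pair was Spry2 and Spred1 (0.24), followed by Spry2 and Spred2 (0.25) and Spred1 and Spred2 (0.26), and the farthest was Spry1 and Spred3 (1.37).

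Markers of other cell types changed along with some of these levels. Over 4 smooth muscle markers the summed level was 167 to 231, 22.6 to 23.7 and 13.7 to 15.3 CPM at d2.5, in the order vehicle, FGF2, knockdown, and 2032 to 2146, 2674 to 3070 and 2111 to 2272 CPM at d5. Over 4 chondrocyte markers it was 541 to 763, 39.8 to 44.6 and 48.4 to 49.5 CPM at d2.5 and 176 to 284, 241 to 349 and 332 to 340 CPM at d5, with Matn1 at 0 in all groups but d2.5 Ctrl+vehicle. These sums are mostly Acta2 and, apart from the d2.5 groups with FGF2, where Acan leads, Col2a1, and their part in the Sprouty and Spred results was not tested. Markers of glia (4 genes), macrophages (3), endothelium (3) and epithelium (3) summed to at most 3.87 CPM in any library, and 3 adipocyte markers to 11.3 to 19.8 CPM. Nearly all of the adipocyte sum is Pparg, with group means of 12.3 to 18.8 CPM. Adipoq and Plin1 had at most 2 counts in any group. Spry1 shares 710 exon bases with Gm42922 on the opposite strand and Spred3 shares 202 with Ggn, and reads on the opposite strand of the 6 genes were 0.109% to 1.53% of their counts.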

How the data were processed

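PolyA RNA of O9-1 cells was sequenced in 18 libraries, 3 for each of 6 groups taken from the labels. The authors deposited raw counts per gene for each library, unstranded and by strand, in the layout of STAR gene counting. The submitters' processing notes name FastQC, STAR, Picard and featureCounts and the build mm10, and versions are not given in the sources used here. The reverse-strand counts were used, since 96.0% to 96.6% of stranded gene counts lay there. Reads assigned to no gene (27.0% to 34.4%) were left out. Gene symbols, exon lengths and coordinates came from GENCODE M21 (GRCm38), which matched 55154 of 55335 identifiers, and promoters from RefSeq.

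Groups were compared within a day with edgeR 4.0.16 (R 4.3.3) on the counts of the 9 libraries of that day, with TMM scaling, filterByExpr (minimum count 10), the quasi-likelihood test and Benjamini-Hochberg adjustment over all genes tested. Comparisons between days and interactions used all 18 libraries. SEs are the log2 fold change over the root of F. Levels are TMM-scaled CPM. No source says whether replicates were separate cultures, so that p-values measure the spread between these samples, which may be technical. Depth limited Spry1, with 2 to 53 counts per library. The test was also run on simulated counts, with the spread that edgeR fitted here and far fewer changed genes than were called for FGF2. That run does not show how the test performs with as many changes as in these data. Alternatives were DESeq2 1.42.0, other scalings, filters, strand, threshold, samples and a replicate block.

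The 6 genes, the pathway and marker lists and the naming rule were chosen with earlier results of these data known. All 6 genes are named, together with the 3 nearest profiles of each, the ERK-induced list, and the largest called rise and fall of each other list.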

Additional observations from a re-analysis of the deposited data

Results flagged for a closer look

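The FGF2 effect differed between d2.5 and d5 in each of the 6 genes by the test of the difference itself, the interaction in the edgeR fit of all 18 libraries. The difference, d5 minus d2.5 on the log2 scale, was -2.22 for Spry1, -1.39 for Spry2, -2.86 for Spry4, -1.36 for Spred1, -1.47 for Spred2 and -0.87 for Spred3. The Spry1 value rests on 2 to 6 counts per library in d2.5 Ctrl+vehicle cells. The knockdown effect differed between the days in 3 genes, by 0.95 for Spry4, 0.58 for Spred3 and 0.30 for Spry2. Day equals the labelled batch, and the 2 cannot be told apart. No group of 3 libraries was searched for outlying libraries.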

How the results depend on the processing

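Of 66 results on the 6 genes in 11 comparisons, 60 kept their side of the threshold in every alternative that could be run. No result that was called, in the main fit or in the alternative, changed direction. Some results called in neither did change sign, such as Spry4 under knockdown at d2.5 (-0.042 to 0.011). With a threshold of 0.01 in place of 0.05, the knockdown effect at d2.5 had 845 genes higher (1483 at 0.05) and 1212 lower (1862), that at d5 had 1375 higher (2079), and its difference between days had 995 higher (1646) and 786 lower (1327). Of the 6 genes, 1 then had a higher knockdown effect at d5 than at d2.5, in place of 3, and Spry4 lost its FGF2 call at d5. The rise of Spry1 from d2.5 to d5 in Ctrl+FGF2 cells left 0 genes called higher in that comparison at 0.01, under DESeq2 (0.53, adjusted p = 0.074), with only the 2 groups compared (0.52, adjusted p = 0.069), and with at least 10 counts in every library, where Spry1 was not tested. The Spry2 difference of the knockdown effect between days missed the threshold under DESeq2 (0.30, adjusted p = 0.063) and with no filter on low counts (0.29, adjusted p = 0.059). The cause of these losses under DESeq2, with 2 groups and with no filter was not tested.

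Leaving out 1 library at a time, genes called higher by knockdown at d2.5 ranged from 916 (without Y/T dKD+FGF2 replicate 3) to 1731. Of the 6 genes, 1 to 2 were called lower in that comparison, 0 to 1 lower by FGF2 at d5, and 0 to 1 higher at d5 than at d2.5 in Ctrl+FGF2 cells.

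Same-numbered libraries of different groups had correlations of -0.088 to 0.11 in their deviations from the group means. The highest correlation with a library of another number ran from -0.021 to 0.089. With 3 libraries per group, these values cannot show whether the replicate numbers pair the samples. With the replicate block, no call among the 6 genes changed, and the knockdown effect had 1420 genes higher and 1806 lower at d2.5 and 2185 higher and 2169 lower at d5.

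Depth limits Spry1 most. The other 5 genes had more counts in every library.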
